A study of Rattus norvegicus with 6 samples.

Results

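The NRF2 antioxidant genes followed here are Nfe2l2, Keap1, Nqo1, Gclc, Gclm, Txnrd1, Srxn1, Slc7a11, Gsr and Prdx1, 10 genes chosen by name. Of them, 9 were among the 15227 genes in the count tables, and Srxn1 was not analysed here. They were measured by droplet single-cell RNA sequencing (10x Genomics) in cells dissociated with trypsin from the cerebral hemisphere of rats. The control group, labelled NC (negative control), had 3 libraries. The design text names 3 animals in each group, without tying them to libraries. The carbon monoxide group (CO) also had 3 libraries, from rats that breathed CO at 1000 ppm for 40 minutes and then at 3000 ppm for 20 minutes. Poisoning counted as severe, per the series description, where consciousness was impaired and carboxyhemoglobin, the hemoglobin that has bound CO, exceeded 60%. Strain, sex, age and the time between exposure and sampling are not given in the sources used here.

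NRF2, the protein of Nfe2l2, is a transcription factor that switches on genes against oxidants and reactive chemicals. In unstressed cells KEAP1 holds NRF2 and hands it to a CUL3 ubiquitin ligase for breakdown, and oxidants that modify cysteines of KEAP1 let NRF2 build up, enter the nucleus, pair with a small MAF protein and bind antioxidant response elements. NRF2 is therefore controlled largely at the level of the protein, which RNA counts do not show. Among its classical targets, Slc7a11 imports cystine, Gclc and Gclm make the enzyme of the committed step of glutathione synthesis, and Gsr returns oxidised glutathione to its reduced form. Txnrd1 reduces thioredoxin, Prdx1 removes peroxides, and Nqo1 reduces quinones. In the brain, astrocytes are known for exporting glutathione precursors that neurons use.

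The core of the antioxidant response element, TGACNNNGC, was searched on both strands of the RefSeq promoter windows (GRCr8, 250 bases before to 50 after each start). Windows exist for 8 of the 9 genes, 9 windows in all. A match lay before the start in 3 genes, Gclm, Prdx1 and the second window of Txnrd1, and 10.1% of all 33469 windows hold one there. These stretches are shown because they carry a match to the letters of the element to which NRF2 is known to bind. Each is written 5′ to 3′ along the gene, with the match in capitals. All 3 matches read TGACNNNGC on the opposite strand.
Gclm: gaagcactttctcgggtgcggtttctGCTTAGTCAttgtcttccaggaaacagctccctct
Prdx1: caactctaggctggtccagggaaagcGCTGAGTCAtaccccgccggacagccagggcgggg
Txnrd1: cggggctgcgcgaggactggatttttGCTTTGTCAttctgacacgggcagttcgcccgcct
The Gclm stretch is chr2:213031937-213031997 (plus strand), with the match starting at position -172 from the gene's start. The Prdx1 stretch is chr5:135383745-135383805 (plus strand), with the match at -135. The Txnrd1 stretch is chr7:22755948-22756008 (minus strand), with the match at -78. In Nfe2l2 the match starts 38 bases after the start. No match was found in the windows of Keap1, Nqo1, Gclc and Slc7a11 or in the first Txnrd1 window, which says only that these letters are absent there. A match is a description of the sequence and not a measured binding site.

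Of 42293 barcodes, 38027 passed the filters (20258 NC and 17769 CO), from libraries of 39494470 to 47322264 UMIs (unique molecular identifiers). Cells were assigned to classes by marker genes, so names such as endothelial stand for endothelial-like cells. The 10 classes that reached 30 cells per library held 28597 cells. Among the 10 leading genes of each class stood 2 to 6 of its own markers and none of another class. The gates used these same markers and left out mixed cells, so this was built in and does not test the class names. Cells of the CO libraries were deeper over all (median 5622 to 5685 UMIs per cell against 4816 to 4888 in NC), but shallower in choroid plexus (median 16136 against 40650) and astrocytes (2584 against 3776). The libraries of a group differed about as much as parts of 1 pool of cells would. The mean ratio of the variance between libraries to that among cells was 1.02 over 10837 genes in NC and 1.09 over 10791 genes in CO, where such parts give 1. Each group was therefore counted as 1 sample, no p-value is given, and every library is shown. Levels are in CPM, the UMIs of a gene per 1000000 UMIs of its class after TMM scaling, and ratios are CO over NC with 95% intervals that cover counting error only. These intervals are too narrow for this purpose. Counts of the 9 genes varied between the libraries of a group 4.29 times as much as counting error, a mean over 152 sets of gene, class and group. For all genes the mean was 3.65. Whole-number values of 4 were also more frequent than values of 3 (7.64% against 7.38% of all values above 0), and 6 than 5, 8 than 7 and 10 than 9, in all 6 libraries. Whether each UMI stands for a separate molecule was not tested.

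In NC, Nfe2l2 was highest in the phagocytes of the brain. It stood at 689, 440.4 and 699.9 CPM in the 3 macrophage libraries and at 304, 321 and 317 CPM in microglia. Pericytes (243 CPM) and endothelial cells (214 CPM) followed, and neuroblasts came last at 44.4 CPM, 13.9-fold below macrophages. The macrophage, microglia and pericyte libraries did not overlap with the class next in order, whereas endothelial cells overlapped with ependymal cells. The summed level of 14 dissociation and heat shock genes was also highest in NC macrophages (71399.5 to 77834 CPM) and microglia (35804 to 36635). It was 28645 to 29632 CPM in endothelial cells, 12026 to 16814 in pericytes and 13816 to 14804 in neuroblasts. Astrocytes had 5251 to 8249 CPM. The part of these genes in the order of Nfe2l2 was not tested. Keap1 varied much less, from 58.9 CPM in pericytes to 19.9 CPM in microglia, a 2.96-fold range. Most neighbours in its order overlapped, and the first place went to astrocytes when classes were taken from clusters. Microglia thus had the second highest level of Nfe2l2 and the lowest of Keap1.

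**Figure D1:**
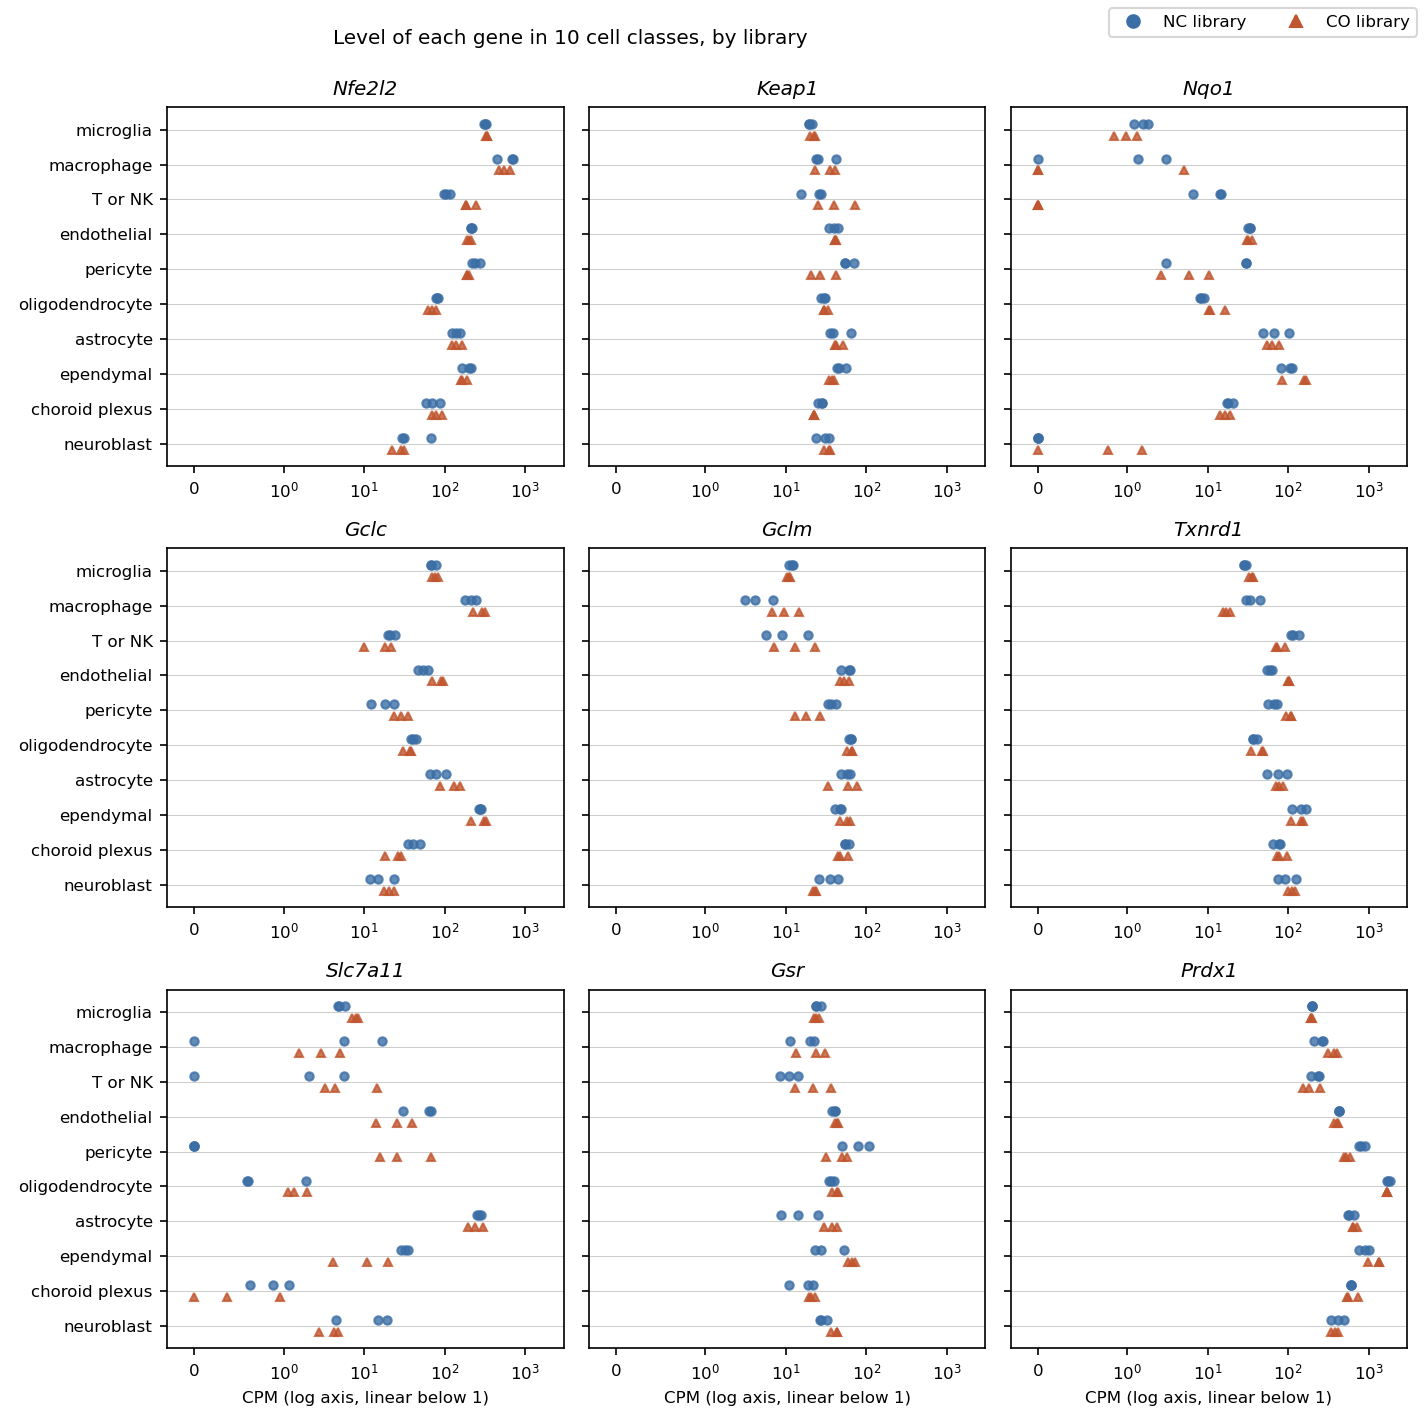
CPM (log axis that is linear below 1) of each of the 9 genes in 10 cell classes. Each point is 1 library, with NC as circles and CO as triangles. Among these classes, Nfe2l2 is highest in macrophages (616 CPM over the NC libraries), Slc7a11 in astrocytes (268 CPM) and Prdx1 in oligodendrocytes (1754 CPM).

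The targets followed different orders of classes. Nqo1 was highest in ependymal cells, the ciliated lining of the ventricles, at 111, 81.0 and 107 CPM, and in astrocytes at 48.6, 103 and 66.9 CPM. These 2 classes overlapped and lay above all others in NC. Nqo1 was close to the limit of detection in microglia (1.52 CPM, 50 UMIs in 5824 cells) and macrophages (1.43 CPM, 3 UMIs in 483 cells). No NC neuroblast held an Nqo1 UMI, where 3 counts would be 1.24 CPM. Gclc, the catalytic subunit of glutamate-cysteine ligase, was also highest in ependymal cells (286, 272 and 265 CPM) and next in macrophages (180.3, 243 and 213 CPM). Gclm, its modifier subunit, had another order. Oligodendrocytes (63.5 CPM), endothelial cells (57.4), choroid plexus (56.3) and astrocytes (55.7) overlapped at the top, and macrophages were lowest at 4.78 CPM. Macrophages were thus second for one subunit and last for the other.

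Slc7a11, the cystine transporter, was highest in astrocytes among the 10 classes. They held 254, 285 and 269 CPM in NC, 5.03-fold above endothelial cells (63.4, 66.7 and 30.6 CPM), with no overlap. Ependymal cells had 32.0 CPM. Microglia had 5.15 CPM, oligodendrocytes 1.06 and choroid plexus 0.896, and no UMI was counted in 417 NC pericytes, where 3 counts would be 3.10 CPM. Gsr was highest in pericytes (78.7, 49.6 and 107 CPM), 2.03-fold above endothelial cells. Txnrd1 led in ependymal cells (141 CPM) and was lowest in microglia (28.8 CPM), with overlap between most neighbours. Prdx1 stood at 1688, 1848 and 1736 CPM in oligodendrocytes, 1.99-fold above ependymal cells (882 CPM), and was lowest in microglia at 199.8 CPM. RefSeq lists 7 Prdx1 pseudogenes, so how reads were shared among such copies is uncertain for this gene.

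Some genes outside the set had like patterns. Over the 10 NC classes and 11106 genes reaching 20 CPM in a class, Fes (Pearson r = 0.966), Hlx (0.963) and Atf6 (0.952) were most like Nfe2l2 in log2(CPM + 1). For Nqo1 they were Col22a1 (0.929), Sft2d2 (0.923) and Tm9sf1 (0.922), and for Slc7a11 they were Stk32a (0.902), Papss2 (0.883) and Hmgcll1 (0.875). These coefficients describe 10 points that share libraries and class totals.

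The comparison of CO with NC asked how the genes differed after poisoning in each class. A gene was called where its ratio was at least 1.5-fold with an interval that left out 1, among genes with at least 30 counts over both groups. Of 90 pairs of gene and class, 82 reached that count. Of these, 10 were called higher and 12 lower in CO, 26.8% of the pairs, while 23.7% of all 97881 pairs of gene and class were called. The 3 CO libraries did not overlap with the 3 NC libraries in 28 pairs (34.1%), against 34.7% of all pairs. As a set, the NRF2 antioxidant genes were thus called about as often as other genes and in both directions. When intervals were widened by each class's spread between libraries, 12 pairs stayed called (14.6%, against 12.4% of all pairs), 6 in each direction. That spread is a mean over all genes of the class. The 9 genes varied more in endothelial cells (6.12 against 3.13 times counting error), choroid plexus (7.36 against 5.49) and ependymal cells (4.46 against 2.94), where widened intervals are still too narrow for them. They varied less in astrocytes (4.77 against 5.80) and microglia (1.72 against 2.79). With the libraries taken as replicates, calls rested on a false discovery rate (FDR) under 0.05 with no fold limit. These calls are therefore not a subset of those above, and they include Txnrd1 in microglia, which was under the 1.5-fold limit. Of the 82 pairs, 13 were called by edgeR (18.0% of all pairs), 11 by edgeR with the replicate number as a block (17.1%) and 9 by DESeq2 (14.0%). Since the libraries of a group differed about as much as parts of 1 pool, these fits may not cover the spread between animals.

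By class, pericytes had 6 of 8 genes called, where 29.0% of all genes were called, and T or NK cells had 4 of 6 (33.0% of all genes). Endothelial cells had 3 of 9 (25.5% of all genes), neuroblasts 3 of 8 (19.3%) and ependymal cells 2 of 9 (28.5%). Astrocytes had 1 of 9 (24.7%), macrophages 1 of 7 (25.9%), choroid plexus 1 of 8 (26.3%) and microglia 1 of 9 (15.8%). Of the 9 genes in oligodendrocytes none was called (16.1% of all genes were), the nearest being Nqo1 at 8.14, 8.30 and 9.12 CPM in NC against 16.6, 10.3 and 10.8 in CO. That is a log2 ratio of 0.57 (0.31 to 0.83), just under the 1.5-fold limit.

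The order of the classes was different with widened intervals. Pericytes then had 2 genes called (16.4% of all genes) and T or NK cells 1 (13.1%), and edgeR with libraries as replicates also called 2 in pericytes (10.7% of all genes) and 1 in T or NK cells (8.14%). Widened intervals left 3 in endothelial cells (19.3%), 2 in ependymal cells (15.8%), 2 in neuroblasts (8.52%), 1 in choroid plexus (13.2%) and 1 in microglia (11.1%). No gene was left in astrocytes (7.67% of all genes), macrophages (11.2%) or oligodendrocytes (9.31%).

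**Figure D2:**
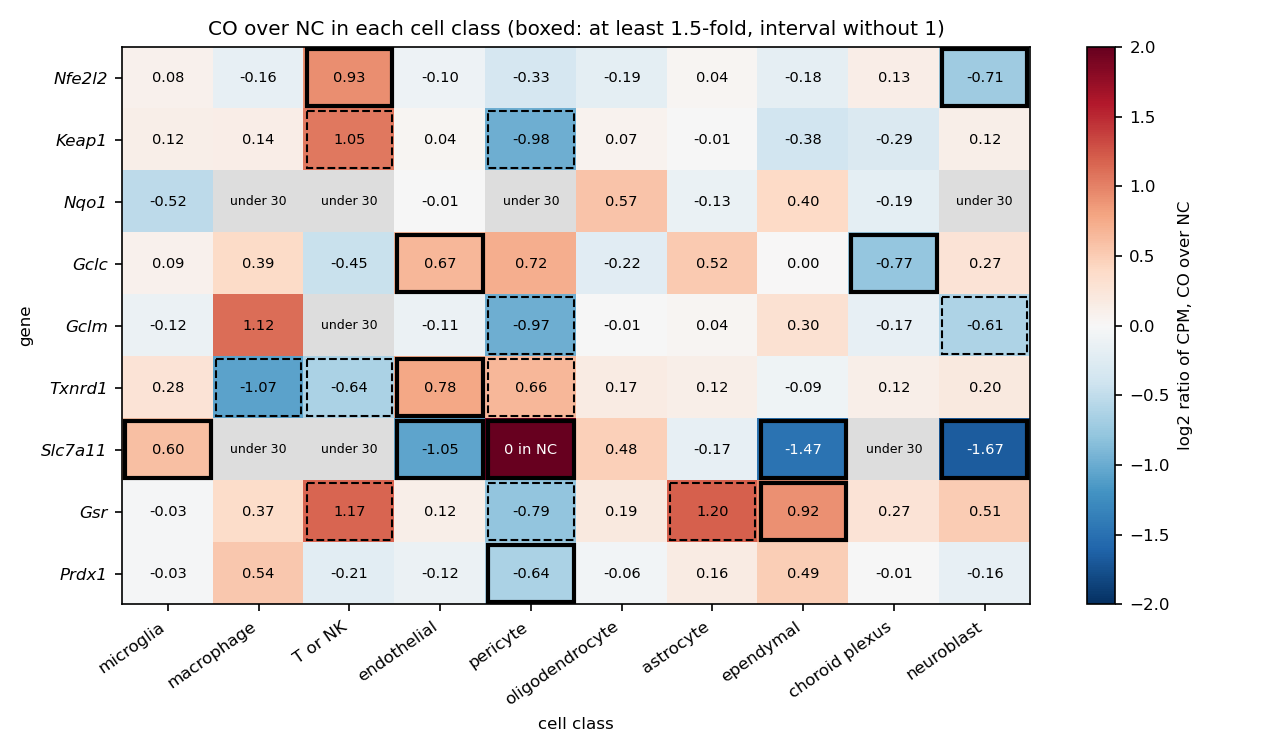
Log2 ratio of CPM, CO over NC, for 9 genes in 10 cell classes, as numbers and colours. Solid boxes mark the 12 pairs called also with widened intervals and dashed boxes the other 10 called pairs; grey cells had under 30 counts. Higher and lower calls are scattered over genes and classes.

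Nfe2l2 itself differed little in most classes. Its log2 ratio lay between -0.33 in pericytes and 0.13 in choroid plexus in 8 of the 10 classes. In microglia, the largest class, it was 304 to 321 CPM in NC and 329 to 336 in CO, a log2 ratio of 0.08 (0.05 to 0.12) with no overlap. The calls were in the other 2 classes. In T or NK cells the NC libraries held 99.0, 102 and 117 CPM and the CO libraries 184, 182 and 243 CPM. All CO libraries lay above all NC libraries, by a log2 ratio of 0.93 (0.60 to 1.27). It was 0.45, under the limit, when the class was taken from clusters. In neuroblasts, the young migrating neurons, it was 29.6, 31.4 and 68.2 CPM in NC against 28.6, 22.1 and 30.9 in CO. Here the groups overlapped, and the log2 ratio of -0.71 became -0.18 without NC replicate 3 and -0.50 in cells thinned to 1500 UMIs.

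Keap1, the NRF2 inhibitor, was higher in CO in T or NK cells at 72.2, 39.1 and 25.0 CPM against 25.4, 27.1 and 15.5 in NC. The groups overlapped, and the log2 ratio of 1.05 (0.31 to 1.80) was 0.50 without CO replicate 1 and 0.52 in clusters. In pericytes Keap1 was lower, at 41.4, 26.3 and 20.5 CPM in CO against 54.5, 69.5 and 53.6 in NC, without overlap. That log2 ratio of -0.98 (-1.65 to -0.34) was -0.34 in thinned cells and -0.40 in clusters. Neither Keap1 call held with widened intervals. In the other 8 classes the log2 ratio of Keap1 lay between -0.38 and 0.14.

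T or NK cells were few (208 in NC and 124 in CO), and other lists moved with them. The summed level of 14 dissociation and heat shock genes was 25088 to 25575 CPM in NC and 33147 to 36582 in CO, with 10 of the 14 higher in CO. Monocyte or dendritic markers summed to 2902 to 3129 CPM in NC and 1556 to 2138 in CO, with Flt3, Xcr1 and Clec9a at 0. Their part in the values of this class was not tested. Gsr was also called there, on 14 and 20 UMIs, at a log2 ratio of 1.17 (0.11 to 2.27) with overlap of the libraries. Txnrd1 was lower at -0.64 (-1.09 to -0.21) and stood at 0.10 when cells were thinned to 1500 UMIs. Neither held with widened intervals. Nqo1 had 15 UMIs in NC and 0 in CO, where 3 counts would be 3.68 CPM, too few to be compared.

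The first enzyme of glutathione synthesis differed between classes. In endothelial cells Gclc was 53.7, 61.5 and 46.2 CPM in NC and 95.9, 68.9 and 89.5 CPM in CO. The CO libraries were all above the NC ones, 1.59-fold (log2 ratio 0.67, 0.54 to 0.80). It was just under the limit at 0.57 with total-count scaling, 0.57 in clusters, 0.56 without NC replicate 3 and 0.57 without CO replicate 1. In choroid plexus Gclc was lower, at 48.7, 40.1 and 34.8 CPM in NC and 18.3, 28.8 and 26.03 in CO, a log2 ratio of -0.77 (-0.99 to -0.55) without overlap. The call held in the 13 alternatives of scaling, cells, gate, libraries and interval that gave a value, from -0.91 to -0.62. TMM scaling shifted all choroid plexus ratios by 0.142 against total counts, and astrocyte markers in that class summed to 61.7 to 76.0 CPM in NC and 175 to 278 in CO. Among other lists that moved there, dissociation and heat shock genes summed to 9679 to 10256 CPM in NC and 6175 to 7524 in CO (3 of 14 higher). The class's own markers summed to 6581 to 7678 and 6020 to 6222 CPM (2 of 7 higher). Oligodendrocyte precursor markers summed to 67.4 to 72.1 and 177 to 251 CPM. The part of these, and of the lower depth of CO choroid plexus cells, in the result was not tested.

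Gclm did not follow Gclc. In endothelial cells its log2 ratio was -0.11 (-0.25 to 0.03), and in choroid plexus it was -0.17 (-0.33 to 0.00). It was called lower in pericytes, with 33.3, 36.4 and 41.7 CPM in NC and 12.9, 26.3 and 17.6 in CO (log2 ratio -0.97, -1.82 to -0.16), on 36 and 21 UMIs. In neuroblasts it was 26.01, 44.8 and 35.8 CPM in NC and 22.8, 23.7 and 21.9 in CO, 1.53-fold lower (log2 ratio -0.61). That value was -0.44 without NC replicate 2. In both classes all CO libraries lay below all NC libraries, but neither call held with widened intervals.

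Gsr was higher in CO in the cells around the ventricles and in astrocytes. In ependymal cells it was 53.0, 27.0 and 23.0 CPM in NC against 65.7, 72.2 and 59.2 in CO. No library overlapped, the ratio was 1.89-fold (log2 0.92, 0.48 to 1.37), and the call held in the 13 such alternatives with a value (0.66 to 1.40). Thinned cells held too few Gsr counts to be among these. UMIs were seen in 31 of 157 NC cells, with 18 in a single cell, and in 83 of 183 CO cells. Dissociation and heat shock genes in ependymal cells summed to 12934 to 14764 CPM in NC and 10544 to 11040.5 in CO (12 of 14 lower), endothelial markers to 21.2 to 42.8 and 64.6 to 85.3 CPM, and the class's own markers to 8650.5 to 9168 and 9948 to 10725 CPM (7 of 7 higher). Their part was not tested. In astrocytes Gsr was 24.8, 14.0 and 8.63 CPM in NC against 29.9, 37.0 and 43.0 in CO, again without overlap, at a log2 ratio of 1.20 (0.70 to 1.72). That value was 0.60 in clusters and was not called with widened intervals. In astrocytes dissociation and heat shock genes summed to 5251 to 8249 CPM in NC and 8218 to 11862 in CO (12 of 14 higher), pituitary markers to 223 to 1474 and 52.5 to 75.2 CPM, and their part was not tested. In pericytes the groups overlapped, at 78.7, 49.6 and 107 CPM in NC and 56.9, 31.5 and 49.7 in CO (log2 ratio -0.79, -1.33 to -0.26), with -0.50 without NC replicate 3 and -0.56 without CO replicate 2.

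Slc7a11 had the widest span of ratios. In astrocytes, the highest of the 10 classes, it differed little between groups, at 254 to 285 CPM in NC and 194 to 297 in CO (log2 ratio -0.17, -0.31 to -0.03). In ependymal cells it was lower, at 32.1, 28.9 and 34.5 CPM in NC and 10.8, 19.7 and 4.13 in CO, without overlap. This log2 ratio of -1.47 (-2.18 to -0.79) was -0.40 when the class was taken from clusters. Astrocyte markers in ependymal cells summed to 2478 to 2682 CPM in NC and 2186 to 2427 in CO, and their part was not tested. In neuroblasts Slc7a11 was 18.9, 14.9 and 4.47 CPM in NC and 4.26, 2.76 and 4.70 in CO. The groups overlapped through the third NC library and the third CO library, and the log2 ratio of -1.67 (-2.45 to -0.89) ranged from -2.63 to -0.95 over the alternatives with a value. Thinned cells held too few Slc7a11 counts to be among these. With libraries as replicates, neither edgeR nor DESeq2 called it. Dissociation and heat shock genes in neuroblasts summed to 13816 to 14804 CPM in NC and 10306 to 11716 in CO (13 of 14 lower) and choroid plexus markers to 17.9 to 34.3 and 6.26 to 8.52 CPM. Their part in the neuroblast values of Nfe2l2, Gclm and Slc7a11, all lower in CO, was not tested.

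Microglia had more Slc7a11 in CO, at a low level. The NC libraries held 4.70, 5.84 and 4.91 CPM and the CO libraries 8.36, 6.97 and 7.95 CPM, 1.51-fold (log2 0.60, 0.32 to 0.87) without overlap. The value sat at the limit and was 0.54 with total counts, without NC replicate 1 and without CO replicate 1. Markers of astrocytes, the highest of the 10 classes for Slc7a11, summed in microglia to 335 to 354 CPM in NC and 454 to 494 in CO, and their part was not tested. In pericytes Slc7a11 had 0 UMIs in all 3 NC libraries and 25.9, 15.8 and 67.3 CPM in the CO libraries, 11.3-fold higher against a floor of 3 counts over the NC group. The interval of the log2 ratio had a lower bound of 3.14 and no upper bound. The 39 UMIs lay in 17 of 434 cells, 32 of them in 10 cells. Astrocyte markers summed to 218 to 235 CPM in NC pericytes and 187 to 263 in CO pericytes.

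Endothelial Slc7a11 came from very few cells. The level was 63.4, 66.7 and 30.6 CPM in NC and 25.5, 38.96 and 14.0 in CO, which overlapped. The log2 ratio was -1.05 (-1.23 to -0.87), -0.41 in thinned cells and -1.70 in clusters. Only 69 of 2947 NC cells and 45 of 2118 CO cells held a UMI, and after thinning it was 37 of 2631 (1.41%) and 21 of 1976 (1.06%). In NC pericytes, which share the vessel wall, it was 0 of 417 cells, at a median of 2302 UMIs against 4224 in NC endothelial cells. Cells with at least 5 Slc7a11 UMIs were 16, 13 and 12 per NC library and 6, 8 and 4 per CO library. They held 92.8% of the NC and 87.8% of the CO UMIs of the gene. Their mean was 20.3, 25.0 and 11.6 UMIs per cell in NC and 17, 19.2 and 13.8 in CO. As a share of endothelial cells they were 1.68%, 1.36% and 1.15% in NC and 0.800%, 1.23% and 0.558% in CO. The groups overlapped in this share and in the UMIs per cell.

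**Figure D3:**
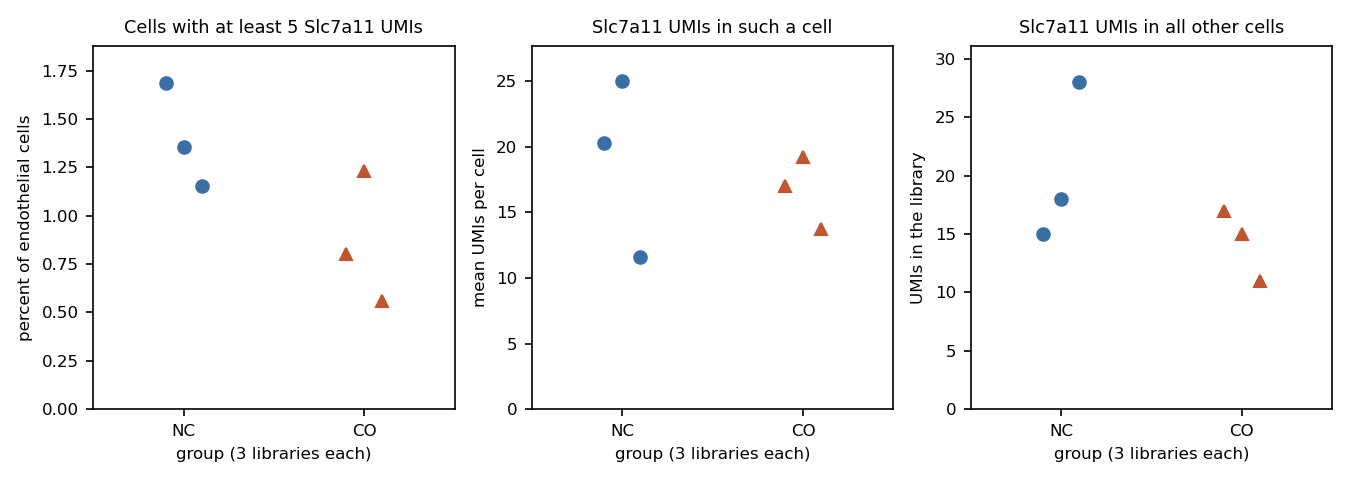
Slc7a11 in endothelial cells, 1 point per library (NC circles, CO triangles). The left plot gives cells with at least 5 UMIs as a percent of endothelial cells (1.39% over NC and 0.850% over CO), the middle plot the mean UMIs in such a cell, and the right plot the UMIs in all other endothelial cells of the library.

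The 59 endothelial cells with at least 5 Slc7a11 UMIs also differed in other genes from the 4951 without any. The cells were chosen by this value and were deeper (median 12882 against 4614 UMIs), so what follows is a description without a test. Ranked by ratio, the leading genes were Vcam1, an adhesion molecule for leukocytes (1898 against 42.9 CPM), Cp, a copper-carrying ferroxidase (484 against 13.9), Slco2a1, a prostaglandin transporter (253.5 against 3.66), and Il1r1, the interleukin-1 receptor (3895 against 204 CPM). Ptgs2, the inducible cyclooxygenase, was 2290.4 against 204 CPM. Of the endothelial markers, Cdh5 was 445 against 359 CPM, Flt1 3357 against 4325 and Cldn5 3296 against 7148 CPM. The astrocyte markers Slc1a2 and Aldh1l1 and the fibroblast markers Dcn and Lum had no UMI in these cells, while Slc4a4 (54.1 against 4.13 CPM) and Col3a1 (96.5 against 7.65 CPM) of the same lists were higher. Of the 59 cells, 3 were marked as doublets by Scrublet.

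Txnrd1, the cytosolic thioredoxin reductase, was higher in CO endothelial cells. There it was 54.6, 64.0 and 59.1 CPM in NC and 102, 99.6 and 103 CPM in CO. The CO libraries all lay above the NC libraries, by 1.72-fold (log2 ratio 0.78, 0.66 to 0.90). The call held in the 14 alternatives of scaling, cells, gate, libraries and interval, from 0.68 to 1.01. A UMI was found in 16.97% of NC and 29.9% of CO endothelial cells, and in 6.46% and 10.8% of cells thinned to 1500 UMIs. In microglia the log2 ratio was 0.28 (0.16 to 0.40), with 28.0, 28.6 and 29.6 CPM in NC and 37.0, 35.4 and 32.7 in CO, below the 1.5-fold limit but without overlap.

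Macrophages went the other way for Txnrd1, with 33.3, 44.8 and 30.4 CPM in NC and 16.8, 18.8 and 15.7 in CO. The groups did not overlap, and the log2 ratio was -1.07 (-1.70 to -0.46) on 75 and 33 UMIs, not called with widened intervals. Oligodendrocyte markers in macrophages summed to 289 to 415 CPM in NC and 876 to 1118 in CO, and their part was not tested. In pericytes Txnrd1 was 66.6, 72.8 and 56.6 CPM in NC and 93.1, 108 and 108 in CO (log2 ratio 0.66, 0.20 to 1.13). That value was 0.36 in cells with at least 2000 UMIs, 0.47 with a stricter gate and 0.04 in clusters, and it was not called with widened intervals.

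Prdx1 differed most in pericytes, at 911, 758 and 807 CPM in NC and 491, 528 and 582 in CO. The groups did not overlap, and the log2 ratio of -0.64 (-0.79 to -0.48) ranged from -0.70 to -0.57 over the alternatives. In macrophages it was 273, 263 and 210.2 CPM in NC and 408, 311 and 368 in CO, a log2 ratio of 0.54 (0.37 to 0.70) under the limit, without overlap. Oligodendrocytes, the highest class for Prdx1, held 1754 CPM in NC and 1680 in CO. Their markers summed in macrophages to 288.5 to 415 CPM in NC and 876 to 1118 in CO. In microglia these markers summed to 590.4 to 594.7 and 1028 to 1058 CPM, with a Prdx1 log2 ratio of -0.03. The part of oligodendrocyte RNA in the macrophage values of Prdx1 was not tested. In ependymal cells the log2 ratio of Prdx1 was 0.49 (0.40 to 0.58). In microglia, oligodendrocytes and choroid plexus it lay between -0.06 and -0.01. Nqo1 was not called in any of the 6 classes where it could be compared, with log2 ratios from -0.52 in microglia (50 and 44 UMIs) to 0.57 in oligodendrocytes. In oligodendrocytes, where the libraries did not overlap, it was called higher in 8 of 14 alternatives (0.30 to 0.70). It was called in 2 of 14 alternatives in ependymal cells and in 2 of 13 in microglia.

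Pericytes held the most calls, 2 higher and 4 lower, and other measures of that class moved as well. Dissociation and heat shock genes summed to 12026 to 16814 CPM in NC and 6592 to 7991 in CO, with 13 of 14 lower. Smooth muscle markers summed to 629 to 739 CPM in NC and 433 to 470.4 in CO, microglia markers to 62.6 to 87.7 and 173 to 252, and oligodendrocyte markers to 291 to 313 and 459 to 574. Pericyte markers themselves summed to 17723 to 18636 CPM in NC and 17365 to 18816 in CO. The part of these in the pericyte values was not tested.

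In endothelial cells the wider pathway gave a mixed picture around Txnrd1 and Gclc. Among 110 further genes of 6 lists, 107 could be compared there. Of them 9 were called higher and 20 lower, with a median log2 ratio of -0.08 against 0.00 over all genes, of which 12.4% were called higher and 13.1% lower. Maff, a small MAF partner of NRF2 family factors, stood at 74.0, 76.7 and 82.8 CPM in NC and 251, 245 and 242 in CO, 3.16-fold higher (log2 ratio 1.66, 1.57 to 1.76). Bach1, a repressor at antioxidant response elements, was 18.6 CPM in NC and 29.6 in CO (log2 ratio 0.67). Abcc4, an export pump that can carry glutathione conjugates, was 450.1 against 889.9 CPM (0.98).

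Hmox1, the heme oxygenase that both NRF2 and BACH1 act on and that itself makes CO from heme, was lower in CO endothelial cells. It was 229.9, 243 and 230.1 CPM in NC and 144, 133 and 169 in CO (log2 ratio -0.65, -0.73 to -0.57). Idh2, a mitochondrial source of NADPH, was 75.8 against 28.3 CPM (-1.42), and 5 of 14 genes of NADPH supply were called lower and 1, Mthfd2, higher. Detoxifying enzymes split, with Akr1b8 (1.45) and Gstm4 (0.97) called higher and Gstk1 (-1.27) and Gstt2 (-1.21) lower. Of the thioredoxin and peroxiredoxin list, 3 of 17 genes were called, all lower, among them Txnrd3 (-1.99) and Sesn2 (-0.91). Pericyte markers in this class summed to 204 to 231 CPM in NC and 272 to 309 in CO. Dissociation and heat shock genes summed to 28645 to 29632 CPM in NC and 26994 to 28569 in CO (4 of 14 higher). Erythroid markers summed to 674 to 838 and 392 to 428 CPM, oligodendrocyte markers to 124 to 139 and 75.3 to 78.6, and neuroblast markers to 9.53 to 13.6 and 29.7 to 39.4. Their part in the endothelial values, those of Txnrd1 and Gclc among them, was not tested.

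**Figure D4:**
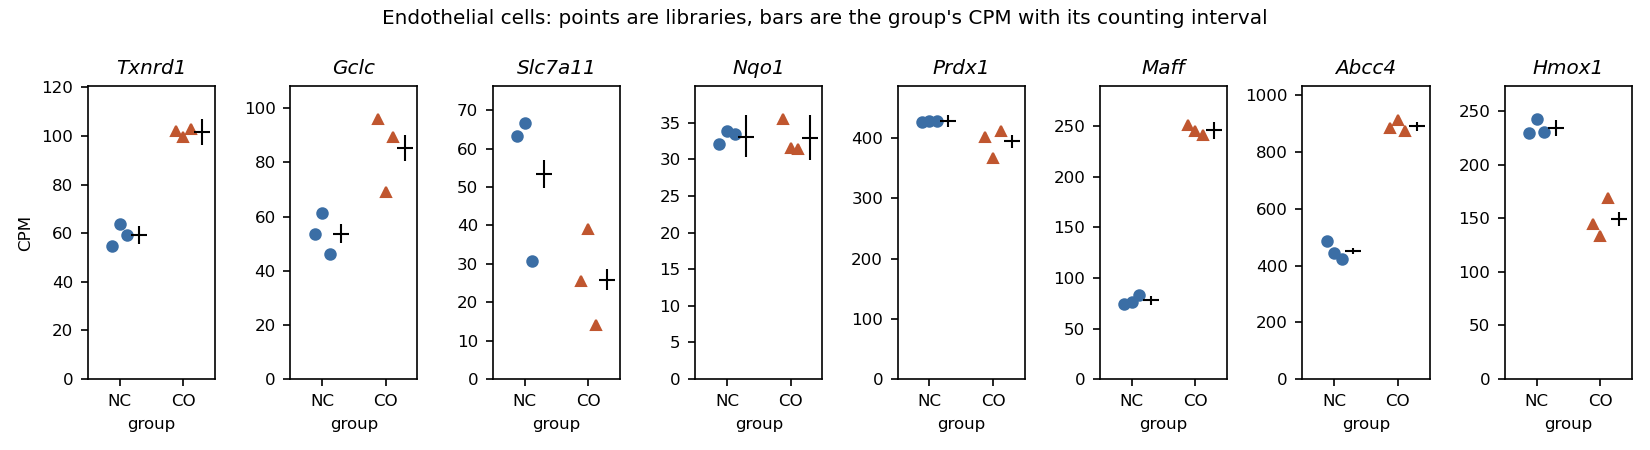
CPM in endothelial cells of 5 members (Txnrd1, Gclc, Slc7a11, Nqo1, Prdx1) and 3 further pathway genes (Maff, Abcc4, Hmox1). Points are the 3 libraries per group (NC circles, CO triangles), and black bars give the group's CPM with its counting interval; the groups are apart for Txnrd1, Gclc, Maff, Abcc4 and Hmox1 and overlap for Slc7a11 and Nqo1.

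Microglia showed few calls in the pathway lists, 9 higher and 7 lower of 106 genes, with a median of -0.04 against 0.00 over all genes (7.22% called higher and 8.53% lower). Hmox1 was lower there too, at 2296, 2491 and 2591 CPM in NC against 1433, 1539 and 1478 in CO (log2 ratio -0.73, -0.75 to -0.72). Maff was lower as well, at 46.5 against 29.9 CPM (-0.64), and Btrc, a substrate receptor of another ligase that targets NRF2, was 70.7 against 41.5 CPM (-0.77). Nqo2, a quinone reductase related to Nqo1, was 0.335 CPM in NC and 3.57 in CO (log2 ratio 3.41, 2.53 to 4.45). Dissociation and heat shock genes in microglia summed to 35804 to 36635 CPM in NC and 29012 to 29493 in CO, with 14 of 14 lower. The class's own markers summed to 2961 to 3014 CPM in NC and 2484 to 2521 in CO (1 of 7 higher). Oligodendrocyte markers summed to 590.4 to 594.7 and 1028 to 1058 CPM (1 of 8 higher). The part of these lists in the microglia values was not tested. Chac1, which breaks down glutathione, was 1.22 against 3.42 CPM (1.49), and Mthfd2 was 6.55 against 14.5 CPM (1.14).

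In macrophages 10 pathway genes of 84 were called higher and 14 lower (12.6% and 13.3% of all genes). Mgst2, a microsomal glutathione transferase, was 24.9 against 122 CPM (log2 ratio 2.29, 1.86 to 2.76). Maff (-1.50), Osgin1 (-1.51) and the mitochondrial superoxide dismutase Sod2 (1258 against 564 CPM, -1.16) were lower. Sod1, the cytosolic form, was 247 against 371 CPM (0.59).

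Astrocytes had 12 of 104 pathway genes called higher and 6 lower (12.3% and 12.4% of all genes). Fth1, the ferritin heavy chain that stores iron, was 2895, 2802 and 3879 CPM in NC and 6209, 6993 and 4276 in CO (log2 ratio 0.84, 0.80 to 0.87) without overlap. Txnip, the inhibitor of thioredoxin, was 149.5 against 258 CPM (0.79), and Maff was 10.5 against 28.3 CPM (1.43). Oligodendrocytes had 10 of 105 called higher and 6 lower (8.82% and 7.30% of all genes). There Bach2 was 76.8 against 143 CPM (0.90), Hmox1 127 against 69.3 CPM (-0.87), Btrc 76.6 against 46.7 CPM (-0.71) and Sod2 183 against 120.4 CPM (-0.60). Of 26 detoxifying enzymes 8 were called higher and 1 lower, and of 18 genes of glutathione synthesis and use none was called, with 2 of the 18 ratios above 1. Dissociation and heat shock genes in oligodendrocytes summed to 7048 to 7114 CPM in NC and 4770.3 to 5437 in CO (14 of 14 lower), endothelial markers to 67.2 to 96.2 and 20.4 to 26.5 CPM (8 of 8 lower), and their part was not tested.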

How the data were processed

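The authors deposited UMI counts, not normalized, for each gene and barcode of 6 libraries (3 per group). Per the submitters' processing notes, Cell Ranger and the Rnor_6.0 build were used (version: not given in the sources used here). Kept were barcodes reaching 500 UMIs and 200 genes. A cell joined the class with the most marker UMIs among those with at least 3 detected markers. It was left out where another, unrelated class with 3 markers reached 1/5 of these UMIs (2539 cells, which also served against doublets), and 5818 cells passed no gate. The erythroid gate was not compared, since hemoglobin RNA occurred in barcodes of every class. These gate details were set after seeing the data.

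UMIs were added up by group within each class, and CPM were computed with TMM factors (edgeR 4.0.16). Ratios have exact conditional binomial intervals and levels exact Poisson intervals (scipy 1.17.1), at 95%. Groups with 0 counts were set to 3 counts over the group. The 3 NC and 3 CO libraries served as a description. With libraries as replicates, edgeR and DESeq2 1.42.0 were alternatives, at an FDR under 0.05 with no fold limit. Over 15 pairs of libraries, 1 barcode was shared. Scrublet and Leiden clusters (scanpy 1.11.5, leidenalg 0.10.2; 45 clusters) gave other alternatives, and the scripts were tested on simulated data. The widened intervals, from counts divided by the class's mean spread between libraries over counting error (2.32 to 5.80 over classes), were added after seeing the data.

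The members, the pathway and marker lists and the tests were chosen with earlier results of these data known. Named were all members, from each pathway list at most 2 called genes per direction with the largest ratios (microglia, endothelial cells, astrocytes, oligodendrocytes, macrophages), and the 3 genes most like Nfe2l2, Nqo1 and Slc7a11. Genes of the Slc7a11-rich endothelial cells, and any genes outside this rule, were named after their values were seen.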

Additional observations from a re-analysis of the deposited data

Results flagged for a closer look

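Of the 9 genes, 5 lay on opposite sides in a pair of classes. All CO libraries lay above all NC libraries in one class and below in the other. The share of all genes that do so was not counted. Since 34.7% of all pairs of gene and class had no overlap, the count of 5 is not read as a trait of these genes. The pair of classes with the largest difference is given for each. In each case the difference between the classes was not tested. Nfe2l2 differed by 1.27 between the log2 ratios of T or NK cells and pericytes. Gclc differed by 1.48 between pericytes (17 and 32 UMIs) and choroid plexus. Txnrd1 differed by 1.85 between endothelial cells and macrophages. Slc7a11 differed by 4.97 between pericytes, with the NC count of 0 set to 3 counts, and ependymal cells. Prdx1 differed by 1.17 between macrophages and pericytes. In both of these classes oligodendrocyte markers summed higher in CO, and their part in the Prdx1 values was not tested.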

How the results depend on the processing

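The 10 pairs called higher in CO became 6 with widened intervals, 17 with the lower fold limit and 4 at 2-fold, and ranged from 6 (without CO replicate 1) to 12 when a library was left out. The 12 pairs called lower became 6 with widened intervals, 4 at 2-fold and 1 in cells thinned to 1500 UMIs, where 63 pairs could still be compared, and ranged from 9 to 11 when a library was left out. Of these 12 pairs, 7 could be compared after thinning and 6 of them were still lower; of the 10 higher pairs, 6 could be compared and 6 were still higher. The direction turned once, for Txnrd1 in T or NK cells after thinning (0.10). With libraries as replicates and no fold limit, 4 pairs were lower with edgeR without a replicate block and 2 with DESeq2. In edgeR with the replicate block 7 pairs were higher and 4 lower. Correlations of same-numbered libraries lay between -0.0546 and 0.0777. Since libraries of a group differed about as much as parts of 1 pool, these values cannot show whether the replicate numbers pair the samples. Of 21 called pairs with a ratio on counts in both groups, 4 stayed called in the alternatives of scaling, count minimum, cells, gate, left-out library and widened interval that gave them a value: Txnrd1 in endothelial cells, Gclc in choroid plexus, Gsr in ependymal cells and Slc7a11 in neuroblasts. Of these 4, only Txnrd1 in endothelial cells had enough counts to be compared after thinning, so the others were not checked at equal depth. The alternatives leave out the other fold limits and the fits with libraries as replicates, and neither edgeR fit nor DESeq2 called Slc7a11 in neuroblasts. Slc7a11 in pericytes, with 0 UMIs in NC, gives no ratio to compare across alternatives. Depth limits mainly Nqo1 and Slc7a11, which fell under 30 counts in 4 and 3 of the 10 classes, and Gclm in 1.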

Other observations

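Maff took opposite directions in different kinds of cells. Beside endothelial cells and astrocytes, it was higher in CO in choroid plexus, at 17.5, 20.1 and 11.2 CPM in NC against 56.5, 62.8 and 53.6 in CO (log2 ratio 1.82, 1.60 to 2.05), and in ependymal cells (31.4 against 74.5 CPM, 1.24). In both phagocyte classes it was lower, most in macrophages with 172, 127 and 136 CPM in NC against 50.4, 50.6 and 53.2 in CO. The groups did not overlap in any of these 6 classes, although Maff in astrocytes was not called with widened intervals, and differences between classes were not tested. Pericytes also had less Maff in CO, at 24.2, 19.85 and 17.87 CPM in NC against 15.51, 13.14 and 17.55 in CO. The libraries did not overlap, but the log2 ratio of -0.43 (-1.45 to 0.58) was not called. In T or NK cells the groups overlapped (log2 ratio 0.36). Choroid plexus, ependymal cells, pericytes and T or NK cells were named here after their values were seen.

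Nqo2 was near the limit of detection in NC in several classes and higher in CO. It had 0 UMIs in NC and 33 in CO in ependymal cells, 7.96-fold higher against 3 counts, and 0 and 17 UMIs in macrophages, too few to be compared. In choroid plexus it was 1.17 against 4.26 CPM, in astrocytes 3.98 against 14.7 CPM, and in oligodendrocytes 0.440 against 1.97 CPM. In endothelial cells, its highest class in NC, it was 12.2 CPM in NC and 11.1 in CO.

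Some classes were too small to compare. Fibroblasts held Slc7a11 at 603 CPM in 55 NC cells and 1593 CPM in 20 CO cells, above astrocytes. Neutrophils held Nfe2l2 at 712 CPM in 76 CO cells, against 9 cells in NC. Monocyte or dendritic cells held Nfe2l2 at 730.0 CPM in 29 NC cells and 203 CPM in 30 CO cells. Cells that passed no gate held Nfe2l2 at 417 CPM in NC and 352 CPM in CO.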
